A study of Mus musculus with 4 samples.

Results

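Grem1 and 4 genes that lie around it on mouse chromosome 2, namely Ryr3, Fmn1, Scg5 and Arhgap11a, are described here across the cKO and control libraries. They are 5 of the 54532 genes in the count table, each found by its symbol in the GENCODE M21 annotation of the mm10 build. The question is whether the low Grem1 level of cKO cells was shared by the genes beside it. Grem1 was chosen because it was lower in cKO in these same libraries, so its values are given as a description with no test. The neighbours were chosen by position, with earlier results of these data known, and their tests come from a fit of the whole table.

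The libraries are poly(A) RNA-seq from pituitaries of male mice of mixed strain aged 10 to 12 weeks. The sample labels and protocols describe sorted gonadotropes, the cells that make luteinizing and follicle-stimulating hormone, but the design text given for the series names bulk pituitaries, and the sources used here do not settle which holds. Hormone genes of other pituitary cells ranged widely in level. Pomc had 6030 and 7140 CPM (counts scaled by TMM-corrected library size) in cKO libraries and 7160 and 9810 CPM in controls. Prl had 1250 and 1270 CPM in cKO and 312 and 583 CPM in controls. Gh had 2150 and 385 CPM in cKO and 1120 and 2380 CPM in controls. Tshb had 7.33 and 7.08 CPM in cKO and 22.3 and 13.7 CPM in controls. The gonadotropin subunit gene Cga had 3450 and 4190 CPM in cKO and 6050 and 6140 CPM in controls. The cKO group (2 libraries) carried a conditional knockout of Gata2, a zinc-finger transcription factor, which the study's title places in gonadotropes. The control group (2 libraries) is labelled only as control. The sources used here do not give the Cre driver, the deleted exons, the mark used for sorting, the full control genotype or any pooling of animals. The spread that p-values rest on is that between libraries, and it may be technical. Total estimated counts were 15541553 and 18362182 in cKO replicates 1 and 2, and 10646909 and 21135301 in control replicates 1 and 2. Gata2 itself had 221 and 214 CPM in the cKO libraries, against 537 and 526 CPM in the controls, giving -1.29 as log2 fold change in the edgeR fit (SE 0.14, adjusted p = 0.0473). That call was lost with a minimum of 1 CPM in 2 libraries (adjusted p = 0.0620 by edgeR) and with a replicate block (adjusted p = 0.0643 by edgeR). All 14 of 14 tested gonadotrope markers had lower fitted levels in cKO, beside 47.6% of all tested genes. Of these markers edgeR called 2 at an adjusted p under 0.05, Fshb and Gata2, beside 0.0461% of all genes called lower, DESeq2 called 6 (5.44% of all genes) and limma-voom 5 (1.48% of all genes). Their summed level was 10360 and 11470 CPM in cKO libraries, against 20370 and 18190 CPM in controls. Log2 CPM of control replicate 2 correlated across genes more closely with the cKO libraries (r of 0.917 and 0.928) than with control replicate 1 (0.889), which was the smallest library.

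Gremlin 1 is a secreted protein that binds bone morphogenetic proteins (BMPs) and keeps them from their receptors. In the mouse limb its transcription depends on distal enhancers, some of which lie inside the neighbouring gene Fmn1. Fmn1 codes for formin 1, which nucleates and extends actin filaments. Scg5 codes for secretogranin V, also called 7B2, a chaperone of prohormone convertase 2 in secretory granules. Ryr3 codes for a ryanodine receptor, a calcium release channel of the endoplasmic reticulum, and Arhgap11a for a GTPase-activating protein known from dividing cells.

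In mm10 the genes span 1.22 Mb, from 112631355 to 113848661 on chromosome 2, in the order Ryr3, Fmn1, Grem1, Scg5, Arhgap11a. Grem1 (ENSMUSG00000074934.3, 113746164 to 113758646, minus strand) has a body of 12.5 kb. Fmn1 (ENSMUSG00000044042.18, 113327736 to 113716767) is on the plus strand, so that the 3′ ends of Fmn1 and Grem1 face each other across 29.4 kb. On the other side Scg5 (ENSMUSG00000023236.7, 113776362 to 113829121, minus strand) begins 17.7 kb beyond the Grem1 start with its own 3′ end. Arhgap11a (ENSMUSG00000041219.14, 113831492 to 113848661, minus strand) follows Scg5 after 2.37 kb, and Ryr3 (ENSMUSG00000057378.15, 112631355 to 113217096, minus strand) lies 529 kb from Grem1. The span holds 14 rows of the table. Of the 9 that are not among these genes, only 4930533B01Rik, an antisense transcript within Fmn1, had any count, and Tmco5b between Ryr3 and Fmn1 had 0 in all 4 libraries.

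The upstream sequences of Grem1, Fmn1 and Scg5 are shown because GATA2 binds DNA at a GATA core and because both cKO libraries were below both controls for these genes. They were thus picked by their levels in these data, by a pattern found in 19.3% of all tested genes. Aqr and A530058N18Rik, within 500 kb, had the same pattern and are not shown. A link between these windows and the levels was not tested. Each is the 250 bases before the RefSeq start (GRCm38.p6), read 5′ to 3′ on the gene's strand, and capitals mark each GATA core on either strand (TATC is its reverse complement).
Grem1 chr2:113758649-113758898, minus strand: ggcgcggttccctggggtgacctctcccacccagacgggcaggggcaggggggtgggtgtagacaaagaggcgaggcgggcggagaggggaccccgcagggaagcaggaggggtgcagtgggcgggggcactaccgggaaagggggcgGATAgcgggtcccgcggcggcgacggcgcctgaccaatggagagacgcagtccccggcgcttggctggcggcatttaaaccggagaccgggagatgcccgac
Fmn1 chr2:113327486-113327735, plus strand: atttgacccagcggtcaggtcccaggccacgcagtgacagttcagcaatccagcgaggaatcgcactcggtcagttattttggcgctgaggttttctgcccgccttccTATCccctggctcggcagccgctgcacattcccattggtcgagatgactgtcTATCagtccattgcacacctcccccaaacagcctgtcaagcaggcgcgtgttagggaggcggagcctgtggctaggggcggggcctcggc
Scg5 chr2:113829092-113829341, minus strand: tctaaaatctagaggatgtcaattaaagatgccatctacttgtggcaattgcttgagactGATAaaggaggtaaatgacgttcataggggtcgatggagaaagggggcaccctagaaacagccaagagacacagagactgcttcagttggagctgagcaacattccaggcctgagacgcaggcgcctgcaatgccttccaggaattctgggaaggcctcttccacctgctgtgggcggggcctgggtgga
The Grem1 window held 1 GATA core, 102 bases before the start, and neither the longer form AGATAA or AGATAG nor the form TGATAA or TGATAG, all searched on both strands. The Fmn1 window held 2 cores, of which the one 90 bases before the start was part of a TGATAG on the opposite strand. The Scg5 window held 1 core, within a TGATAA 191 bases before the start. Of 32851 such windows in the RefSeq table, 53.6% held a GATA core and 26.5% a longer form, with each core counted inside the longer form that contains it. A second RefSeq start of Fmn1 had 1 core and the Arhgap11a window had none. RefSeq windows were matched for 4 of the 5 genes, all except Ryr3. A match of these letters is a description of the window and not a binding site.

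Grem1 had 8.17 and 5.79 CPM (127 and 103 counts) in cKO replicates 1 and 2, against 199 and 115 CPM (2193 and 2406 counts) in control replicates 1 and 2. Both cKO libraries stood far below both controls. The pooled SD of log2 CPM within groups was 0.46 for Grem1, against a median of 0.23 over the 2129 genes of similar level. The mean was 6.98 ± 1.68 CPM in cKO and 157 ± 59.7 CPM in controls (SD, n = 2 each), which left 4.44% of the control level. The fitted log2 fold change was -4.49 (SE 0.37), and it ranged from -4.84 to -4.05 when 1 library was left out. In RNA of many cells, sorted or not, fewer Grem1-expressing cells and less Grem1 RNA per cell cannot be told apart.

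The neighbour on the 3′ side, Fmn1, had no count in either cKO library, against 125 and 126 counts in control replicates 1 and 2. In CPM the Fmn1 level was 0 and 0 in cKO, against 11.4 and 6.02 in the controls, so the groups did not overlap. The mean control level of Fmn1 was 48.1 times the mean level of a floor of 3 counts in each cKO library. As a log2 fold change this is -5.59, called its bound below. It covers counting error only and not the spread between the controls. The fitted log2 fold change of -10.15 rests on the prior count and is no measure of size. The adjusted p was 0.394 by edgeR (SE 2.13), so Fmn1 was not called in the whole-table fit. It passed with DESeq2 (adjusted p = 1.17e-05), which called 5.44% of all genes. It also passed with no filter on low counts (adjusted p = 0.0366 by edgeR), where 1.04% of genes were called, and without control replicate 2 (adjusted p = 0.0213 by edgeR), where 3.5% were called. Over the 16 alternatives its adjusted p ranged from 1.17e-05 to 0.628, with a negative fitted value in each.

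The Fmn1 counts stood in a like proportion to those of Grem1 in both controls, at 5.70% and 5.24% of the Grem1 counts. At those shares the Grem1 counts of cKO replicate 1 would correspond to 6.65 to 7.24 Fmn1 counts, and those of cKO replicate 2 to 5.39 to 5.87, where 0 were found. At the lower of the control levels of Fmn1 itself, the cKO libraries would hold 93.6 and 107 counts. The counts of 0 lie far below those numbers, whereas the counts that a difference as large as that of Grem1 would leave are only a few above the floor of 3.

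A gene with no count in both cKO libraries and at least 100 in both controls was rare in the table. There were 6 such genes among the 17349 tested (0.0346%), at a minimum chosen after the Fmn1 counts were seen, and 0 genes with the opposite pattern. With a minimum of 50 counts there were 35 genes without a count in cKO and 8 without one in controls, and with a minimum of 25 counts 139 and 72. Besides Fmn1, the 6 were Strip2, Dab2, Ppef2, Gm12264 and Gm45104, which lie on other chromosomes. Low counts in these libraries were uneven between replicates. Of the tested genes 6.60% had 0 counts in control replicate 1 and at least 50 in control replicate 2, and 2.12% had 0 in cKO replicate 1 and at least 50 in cKO replicate 2.

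Fmn1 overlaps several antisense and sense transcripts, and whether reads were counted by strand is unknown from the sources used here. Fmn1 shares 449 exon bases with Gm13966 and 31 with Gm13963 on the opposite strand, and both had 0 counts in all libraries. The antisense transcript 4930533B01Rik, which shares no exon base with Fmn1, had 16 and 0 counts in cKO libraries and 0 and 13 in controls. All counts of the 5 genes were whole numbers.

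**Figure D1:**
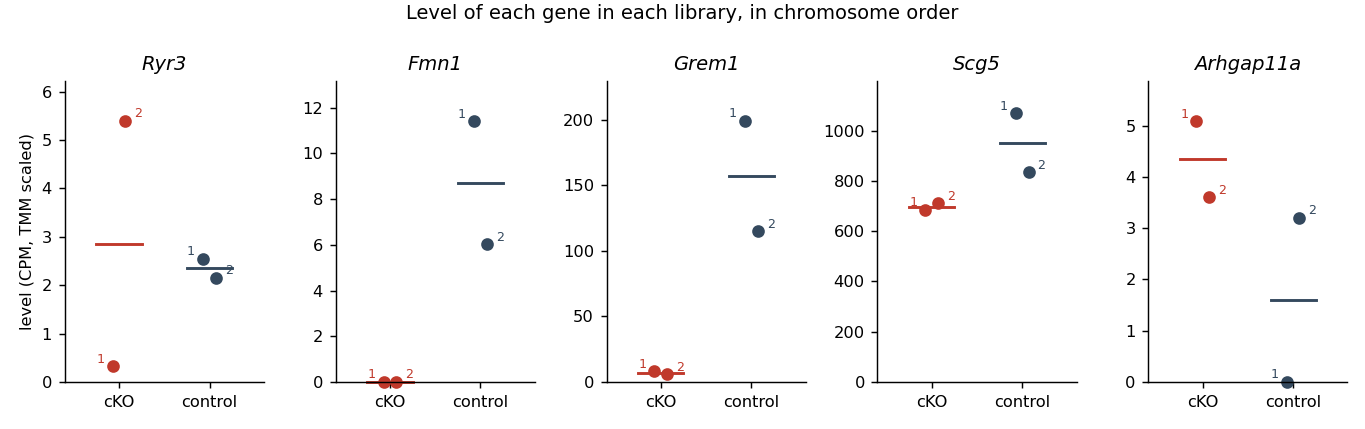
Level of each gene in each library in CPM (vertical axes from 0, each with its own scale), cKO in red and control in dark blue, with points numbered by replicate and a bar at the group mean. Grem1 and Fmn1 sit near or at 0 in both cKO libraries, Scg5 between 685 and 712 CPM, and Ryr3 and Arhgap11a at a few CPM with wide spread.

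Scg5, which lies on the other side of Grem1, kept most of its level. It had 685 and 712 CPM in cKO replicates 1 and 2, against 1070 and 835 CPM in control replicates 1 and 2. The groups did not overlap, and the difference was small beside that of Grem1. The mean level was 698.5 ± 19.4 CPM in cKO and 951 ± 164 CPM in controls (SD, n = 2 each), or 73.4% of control. In the edgeR fit the log2 fold change was -0.45 (SE 0.15, adjusted p = 0.645), so Scg5 was not called. It passed with limma-voom, at a log2 fold change of -0.40 (adjusted p = 0.0395), and without control replicate 2, at -0.61 (adjusted p = 0.0240 by edgeR). Without control replicate 1 the value was -0.27.

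The ratio of Grem1 counts to Scg5 counts within a library does not depend on the scaling between libraries. Grem1 counts were 1.19% and 0.813% of Scg5 counts in cKO libraries, against 18.7% and 13.8% in controls. As a difference of log2 CPM, each with a prior of 0.5 CPM, it was -6.31 and -6.82 in cKO, against -2.42 and -2.86 in controls. The prior makes the cKO values less negative than the count ratios alone would give. Set against Gata2 in the same libraries, Grem1 counts were 3.70% and 2.70% of Gata2 counts in cKO and 37.1% and 21.9% in controls.

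Arhgap11a and Ryr3 were at the edge of detection. Arhgap11a had 79 and 64 counts in cKO libraries, against 0 and 67 in controls. In CPM it had 5.08 and 3.60 in cKO, against 0 and 3.20 in controls, so that both cKO libraries were higher, with control replicate 2 close behind. Its log2 fold change was 1.42 (SE 2.21, adjusted p = 0.999 by edgeR), and it was 0.43 without control replicate 1 and 9.01 without control replicate 2, where the lone control had 0 counts and the value rests on the prior count. The 0 in control replicate 1 is 1 of the 1145 cases in which that library had no count and control replicate 2 at least 50.

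Ryr3 had 5 and 96 counts in cKO libraries, against 28 and 45 in controls. In CPM this was 0.322 and 5.40 in cKO, on either side of the controls at 2.55 and 2.15. The log2 fold change was 0.28 (SE 1.93, adjusted p = 0.999 by edgeR), and its sign turned without cKO replicate 2 (-2.85), with limma-voom (-0.61) and with a replicate block (-0.78). Exons of Ryr3 overlap those of Aven on the opposite strand by 916 bases, so its counts are uncertain as well as few.

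Of the 4 neighbours 0 were called by edgeR, beside 0.0576% of all tested genes (0.0461% lower and 0.0115% higher in cKO). At an unadjusted p under 0.05 there were 2, Fmn1 and Scg5, beside 7.04% of all genes. DESeq2 called 1 (Fmn1) and 5.44% of all genes, and limma-voom 1 (Scg5) and 1.48% of all genes. Both cKO libraries were below both controls for 2 neighbours, Fmn1 and Scg5, a pattern found in 19.3% of all tested genes, and above both controls for 1, Arhgap11a, beside 19.7%. The median log2 fold change of the neighbours was -0.08, against 0.03 over all tested genes. It lies midway between the values of Scg5 (-0.45, SE 0.15) and Ryr3 (0.28, SE 1.93), so it is uncertain. Fmn1 is the lowest value, so taking its bound in place of its fitted value cannot move the median. The Grem1 value minus that median was -4.41 on the log2 scale, and -2.61 without cKO replicate 2.

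**Figure D2:**
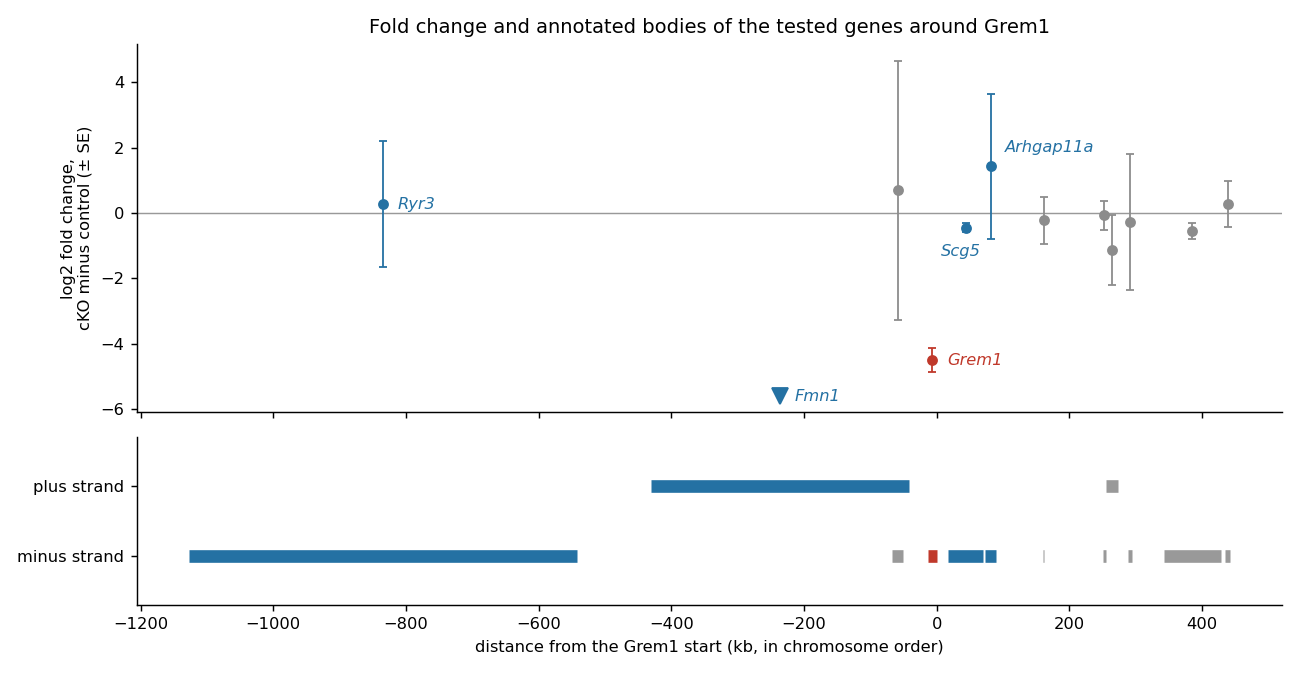
Upper panel: log2 fold change (cKO minus control) with SE of the tested genes in the span and within 500 kb of Grem1, at the middle of each gene body, against distance from the Grem1 start in kb. The triangle for Fmn1 is its bound of -5.59, from the mean control level and a floor of 3 counts per cKO library. Grem1 (red) is at -4.49 and Scg5 at -0.45. Lower panel: annotated gene bodies by strand, with Grem1 in red, its described neighbours in blue and other tested genes in grey.

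Per kilobase of annotated exon, the levels of these genes spanned several orders of magnitude. In cKO cells Scg5 had 445 ± 12.3 RPKM (CPM per kilobase of exon), Grem1 1.68 ± 0.41, Arhgap11a 0.814 ± 0.197, Ryr3 0.151 ± 0.189 and Fmn1 0 (SD, n = 2). In control cells Scg5 had 606 ± 104 RPKM, Grem1 37.9 ± 14.4, Fmn1 0.565 ± 0.245, Arhgap11a 0.300 ± 0.425 and Ryr3 0.124 ± 0.0147 (SD, n = 2). In the controls the RPKM ranges of Fmn1 and Arhgap11a overlapped, as did those of Arhgap11a and Ryr3, so these neighbours in the order do not differ beyond their spread. Grem1 stood clear of them in the controls, and in cKO it came within reach of Arhgap11a, with 1.97 and 1.40 RPKM against 0.953 and 0.675 RPKM.

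Of the other 7 tested genes within 500 kb 0 were called by edgeR, DESeq2 or limma-voom, and 0 had an unadjusted p under 0.05. Gjd2, for the gap junction protein connexin 36, had 15.3 and 22.1 CPM in cKO and 21.6 and 17.8 CPM in controls, with a log2 fold change of -0.07 (SE 0.44). Aqr, for an RNA helicase of the spliceosome, had 47.3 and 65.1 CPM in cKO, against 84.8 and 80.3 CPM in controls, at -0.55 (SE 0.25, adjusted p = 0.717 by edgeR). A530058N18Rik, annotated as a processed transcript, had 3.22 and 3.77 CPM in cKO and 11.2 and 4.21 CPM in controls. Besides Grem1, Fmn1 and Scg5, Aqr and A530058N18Rik were the genes within 500 kb in which both cKO libraries lay below both controls. Without Grem1 this was 4 of 10 tested genes within 500 kb (40.0%), with 1 of 10 above both controls (10.0%), beside 19.3% and 19.7% of all tested genes. Within 5 Mb it was 12 of 45 genes below (26.7%) and 5 above (11.1%). The zinc-finger gene Zfp770 (0.27, SE 0.70), the cardiac actin gene Actc1 (-0.27, SE 2.07), the pseudogene Gm21596 (-0.22, SE 0.72) and 4930533B01Rik (0.69, SE 3.97) had log2 fold changes within their SE of 0.

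The median log2 fold change of the tested genes around Grem1 was small in every window and moved with the fit. Within 1 Mb it was -0.29 with limma-voom, -0.09 with a replicate block and -0.02 with the newer edgeR quasi-likelihood method. With 1 library left out it ranged from -0.43 to 0.008. Without Grem1, negative fitted values made up 70.0% of 10 genes within 500 kb and 63.6% of 11 within 1 Mb. They made up 47.4% within 2 Mb and 48.9% within 5 Mb, beside 47.6% of all tested genes. A gene was counted in a window when its whole annotated body lay inside it, so Ryr3 enters only from 2 Mb outward. Within 1 Mb of Grem1, and without it, 11 genes had a median log2 fold change of -0.22, the value of the pseudogene Gm21596 (SE 0.72). Of these 11, 0 were called by edgeR and 2 had an unadjusted p under 0.05. DESeq2 called 1 and limma-voom 1, all among Fmn1 and Scg5, beside 5.44% and 1.48% of all genes. The median was -0.25 over 10 genes within 500 kb, 0.14 over 19 genes within 2 Mb and 0.03 over 45 genes within 5 Mb, beside 0.03 over 1339 other genes of chromosome 2. Setting genes with no count in a group at their bound left these medians as they were. This is no check on the medians, since a bound cannot reverse a sign and a median rests on the middle values. Within 5 Mb 0 of the 45 genes were called by edgeR, 3 had an unadjusted p under 0.05 (Fmn1, Scg5 and Bmf), DESeq2 called 2 (Fmn1 and Bmf) and limma-voom 1 (Scg5). Among the 1339 other genes of chromosome 2, edgeR called 1, Fshb, for the beta subunit of follicle-stimulating hormone, which lies 6.69 Mb from Grem1. Fshb had 618 and 812 CPM in cKO libraries, against 3263 and 2496 CPM in controls.

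**Figure D3:**
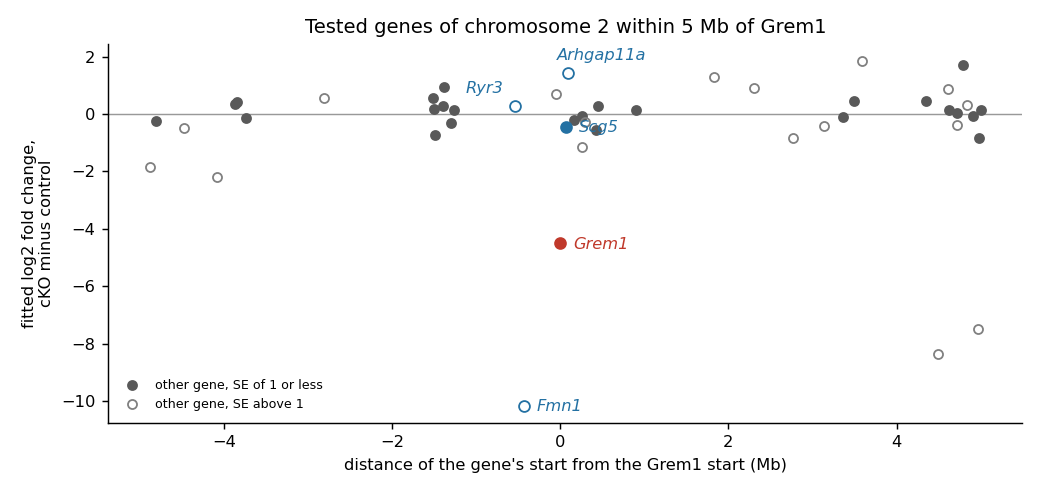
Fitted log2 fold change (cKO minus control) of each tested gene of chromosome 2 within 5 Mb of Grem1, against the distance of its start from the Grem1 start in Mb; open circles have an SE above 1. Most genes lie near 0 on both sides, Grem1 is at -4.49, and Fmn1 is at its fitted -10.15, which depends on the prior count.

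The genes most like Grem1 over the 4 libraries were sought by the Euclidean distance between log2 CPM profiles centred on each gene's mean, with a prior of 0.5 CPM. Among 11606 genes whose mean log2 CPM was 2 or more, Fmn1 was listed nearest, at a distance of 0.40. This is a description of profiles and no evidence of a shared pattern, since Grem1 was chosen for its low cKO level and a gene with 0 cKO counts enters through its control level, with the prior setting its cKO values. Next came Strip2 (0.62), which codes for a subunit of a phosphatase and kinase complex, and Cntn5 (0.86), for a neural adhesion molecule, both with 0 counts in cKO. Kcnh1, a voltage-gated potassium channel gene, followed at 1.07, then Prkg1 (1.15), for a cGMP-dependent protein kinase, and Nudt16 (1.29), for an RNA-decapping enzyme. Prkg1 had 2.96 and 3.88 CPM in cKO libraries, against 45.6 and 37.6 CPM in controls. The place of Fmn1 moved with the prior. It was nearest with a prior of 0.25 CPM and with library size only, but 19th of these genes with 0.1 CPM, 3rd with 1 CPM and 11th with 2 CPM. Leaving out each library in turn gave places from 1 to 4.

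The distances to Grem1 were 3.96 for Scg5, 4.65 for Ryr3 and 6.70 for Arhgap11a. The profiles nearest to Scg5 were those of Parp1 (0.028) and Ly6h (0.037). Ly6h had 569 and 581 CPM in cKO and 856 and 683 CPM in controls. The profiles nearest to Ryr3 were those of Jph1 (0.20) and Slc16a5 (0.37), and those nearest to Arhgap11a were Hyal3 (0.15) and Msto1 (0.28). Hyal3 had 12.8 and 10.6 CPM in cKO and 0.727 and 9.27 CPM in controls, low in control replicate 1 as Arhgap11a was.

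**Figure D4:**
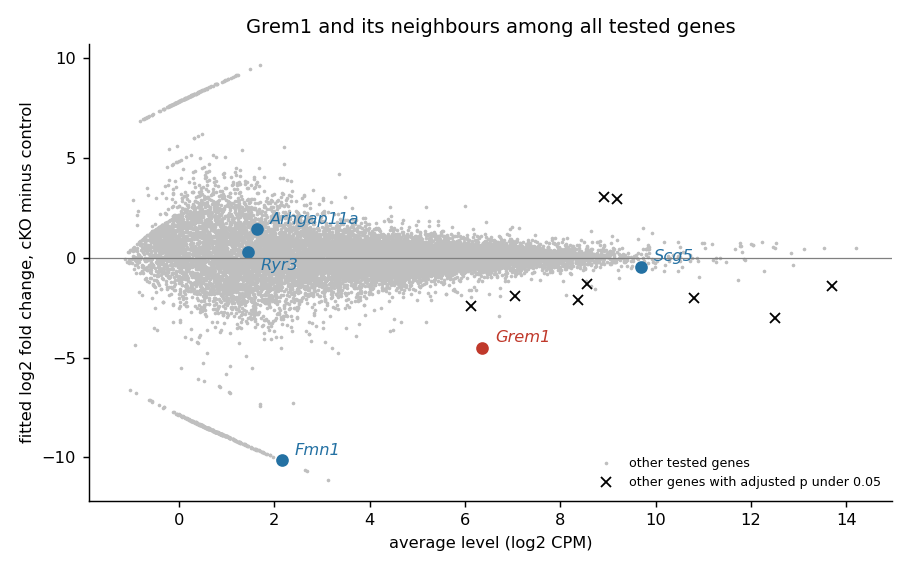
Fitted log2 fold change (cKO minus control) against average level (log2 CPM) for the 17349 tested genes in grey, with Grem1 in red and its neighbours in blue. Crosses mark genes outside these 5 that edgeR called. Grem1 is at -4.49 at its level, Scg5 (-0.45) lies within the spread of well-expressed genes, Ryr3 and Arhgap11a lie where the spread is wide, and Fmn1 lies on the line of genes with no count in cKO.

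Of the genes on the BMP pathway lists, with Grem1 set aside, 0 were called by edgeR. Of 8 other BMP antagonists tested, 4 had lower fitted values, with a median log2 fold change of -0.09, and 0 were called by edgeR or limma-voom. Bmper was the 1 with an unadjusted p under 0.05 and the 1 called by DESeq2, beside 7.04% and 5.44% of all genes. Twsg1, for twisted gastrulation, had 134 and 138 CPM in cKO and 103 and 140 CPM in controls, and Chrd, for chordin, had 45.1 and 52.1 CPM in cKO and 47.9 and 37.8 CPM in controls. Bmper, whose product binds BMPs outside the cell, had 15.3 and 15.0 CPM in cKO, against 32.7 and 29.9 CPM in controls (-1.05, SE 0.37, adjusted p = 0.653 by edgeR). Nog, Sost and Sostdc1 had no count in any library. Grem1 made up 3.84% and 2.57% of the summed antagonist level in cKO libraries, against 50.8% and 33.4% in controls.

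Of the BMPs that gremlin 1 binds, Bmp4 had no count in any library. Bmp7 had 20.0 and 7.31 CPM in cKO and 21.9 and 12.0 CPM in controls, and Bmp2 had 4.69 and 6.97 CPM in cKO and 5.64 and 5.64 CPM in controls. Neither was called by edgeR, DESeq2 or limma-voom, and neither had an unadjusted p under 0.05. Of 12 BMP receptors and SMADs 0 were called by edgeR, by DESeq2 or by limma-voom, and 0 had an unadjusted p under 0.05. Their median log2 fold change was 0.11, and the highest levels were those of Smad5 (0.15, SE 0.22), Smad4 (0.58, SE 0.25) and Bmpr1a (0.07, SE 0.27), as log2 fold changes. Of 8 tested BMP target genes 0 were called by edgeR, with 4 of 8 higher and a median of 0.15. Id2, for an inhibitor of DNA binding, had 114 and 94.3 CPM in cKO, against 45.4 and 51.3 CPM in controls (1.10 as log2 fold change, SE 0.23, adjusted p = 0.360 by edgeR). It was the 1 gene of this list with an unadjusted p under 0.05 and the 1 that DESeq2 and limma-voom called, beside 7.04%, 5.44% and 1.48% of all genes. Msx1 (-0.03, SE 0.29) and Smad7 (-0.45, SE 0.72) had log2 fold changes within or near their SE of 0.

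None of the relatives of Fmn1 was called by edgeR. Of 13 other formin genes tested 0 were called by edgeR or limma-voom, with a median log2 fold change of 0.14. An unadjusted p under 0.05 was found for 1, Fmn2, and DESeq2 called 2, Fmn2 and Daam1, beside 7.04% and 5.44% of all genes. Diaph1 (0.31, SE 0.185), Daam1 (0.34, SE 0.16) and Fmnl2 (-0.20, SE 0.25) had the highest levels. Fmn2, the closest relative of Fmn1, had 48.7 and 40.2 CPM in cKO, against 90.8 and 65.1 CPM in controls (-0.81, SE 0.27, adjusted p = 0.642 by edgeR). Fmn1 was the 1 formin gene with no count in both cKO libraries.

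Among the relatives of Scg5, chromogranin A and secretogranin II genes fell. Of 7 others, counting Pcsk2, 2 were called by edgeR, both lower, beside 0.0461% of all genes. With Chgb, 3 were called by DESeq2 and by limma-voom, beside 5.44% and 1.48% of all genes, and the median was -0.30. The 2 were Chga (log2 fold change -2.99, SE 0.12, adjusted p = 0.000404 by edgeR) and Scg2 (-1.43, SE 0.145, adjusted p = 0.0413 by edgeR). The proSAAS gene Pcsk1n had -0.19 (SE 0.14). Pcsk2, whose enzyme needs 7B2 for its activation, had 172 and 228 CPM in cKO and 222 and 184 CPM in controls (-0.02, SE 0.20). Of the other calcium release channels Itpr1 had -0.46 (SE 0.15, adjusted p = 0.629 by edgeR), Ryr2 0.63 (SE 0.23, adjusted p = 0.654 by edgeR) and Itpr3 -0.10 (SE 0.53). Of these 5 channels 0 were called by edgeR or limma-voom. Itpr1 and Ryr2 had an unadjusted p under 0.05 and were called by DESeq2, beside 7.04% and 5.44% of all genes. Of 14 other genes of the ARHGAP family 0 were called by edgeR or limma-voom, with a median of -0.01, while 6 had an unadjusted p under 0.05 and 4 were called by DESeq2, beside 7.04% and 5.44% of all genes. Arhgap35 had -0.43 (SE 0.16), Arhgap21 0.12 (SE 0.18) and Arhgap32 0.55 (SE 0.17).

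Genes of dividing cells, with which Arhgap11a is usually found, were low in all libraries. The 15 listed genes summed to 65.2 and 94.5 CPM in cKO libraries and 121 and 102 CPM in controls. Cdk1 and Bub1 had no count in any library. Of 10 tested genes 0 were called by edgeR or limma-voom. Ccnb2 was the 1 gene with an unadjusted p under 0.05 and the 1 called by DESeq2, beside 7.04% and 5.44% of all genes. It had no count in either cKO library, against 48 and 75 counts in controls. Fitted values were lower in cKO for 8 of the 10, beside 47.6% of all tested genes, with a median log2 fold change of -0.61. Pcna (-0.22, SE 0.31), Mcm2 (-0.64, SE 0.51) and Mcm5 (-1.17, SE 0.72) had the highest levels.

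Markers of other cells were present in these libraries beside the low Grem1 and Fmn1 levels. Of 7 lactotrope markers 6 had higher fitted values in cKO, with a summed level of 1654 and 1699 CPM in cKO libraries and 683 and 1004 CPM in controls, led by Prl; of the 7, 0 were called by edgeR, 3 by DESeq2 and 1 by limma-voom, beside 0.0576%, 5.44% and 1.48% of all genes. The 13 mitochondrially encoded genes summed to 75780 and 90220 CPM in cKO and 51850 and 60980 CPM in controls, with 13 of 13 higher in fitted value, beside 9099 of all 17349 genes. Of these 13, 0 were called by edgeR, 10 by DESeq2 and 13 by limma-voom, beside 0.0576%, 5.44% and 1.48% of all genes. Stem and progenitor markers summed to 85.6 and 97.0 CPM in cKO and 37.2 and 51.5 CPM in controls, led by Sox9 and Sox2, with Aldh1a1 at 0. Of 4 tested, edgeR called 0, and DESeq2 and limma-voom each called 1 (Sox9), beside 5.44% and 1.48% of all genes. Thyrotrope markers summed to 156.5 and 112 CPM in cKO and 81.1 and 78.4 CPM in controls, led by Dio2 and by Pou1f1, which is also on the lactotrope and somatotrope lists. Of 4 tested, edgeR and limma-voom called 0 and DESeq2 1 (Dio2), beside 5.44% of all genes by DESeq2. Tshb, the defining thyrotrope hormone gene, had 7.33 and 7.08 CPM in cKO and 22.3 and 13.7 CPM in controls (-1.32, SE 0.57, adjusted p = 0.705 by edgeR). The part of these markers in the Grem1 and Fmn1 values was not tested.

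Corticotrope and melanotrope markers, led by Pomc and Pcsk2, were lower in fitted value for 6 of 6, beside 47.6% of all tested genes. They summed to 6343 and 7512 CPM in cKO and 7534 and 10210 CPM in controls. Of the 6, edgeR and DESeq2 called 0 and limma-voom 1 (Pomc), beside 1.48% of all genes by limma-voom. Somatotrope markers, led by Gh and Kcnmb2, ranged from 418 to 2187 CPM in cKO and from 1147 to 2404 CPM in controls, with Ghsr at 0. Fitted values were lower in cKO for 2 of the 4 tested. Ghrhr had 0 and 1 counts in cKO libraries, against 95 and 80 in controls (adjusted p = 0.606 by edgeR). Of the 4, edgeR called 0, DESeq2 1 (Ghrhr) and limma-voom 1 (Gh), beside 0.0576%, 5.44% and 1.48% of all genes. Fibroblast and pericyte markers, led by Col1a2 and Rgs5, summed to 18.65 and 12.7 CPM in cKO and 0.0909 and 19.0 CPM in controls. Endothelial markers, led by Cdh5 and Pecam1, summed to 19.0 and 11.5 CPM in cKO and 17.55 and 31.9 CPM in controls, with Emcn at 0. Leukocyte markers, led by Cd68 and Fcer1g, summed to 3.15 and 12.9 CPM in cKO and 24.8 and 10.85 CPM in controls, with C1qa at 0. Erythroid markers, led by Hba-a2 and Hba-a1, summed to 16.1 and 1.855 CPM in cKO and 37.0 and 8.80 CPM in controls.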

How the data were processed

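Poly(A) RNA was sequenced from 2 cKO and 2 control samples, grouped by the labels, which describe sorted gonadotropes although the design text given for the series names bulk pituitaries. The deposited table holds estimated counts per gene, unscaled. The authors used mm10, the aligner STAR 2.5.1b and the counter featureCounts 1.5.0-p1, per the submitters' processing notes. The sources used here do not state the annotation release, the strand setting or how multi-mapped reads were counted. Of the values 3.49% to 5.53% per library were not whole. Identifiers were matched to GENCODE M21 without their version (54495 of 54532).

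Counts were rounded and filtered with filterByExpr (minimum count 10, minimum total 15, by group), leaving 17349 genes, and scaled with TMM. Groups were compared with edgeR 4.0.16 in R 4.3.3, by its quasi-likelihood F-test (two-sided), with Benjamini-Hochberg adjustment over all tested genes and a threshold of 0.05. The SE is the log2 fold change divided by the square root of F. RPKM used the union of annotated exons. Alternatives used DESeq2 1.42.0, limma 3.58.1 and other settings. The code was tested on simulated data. Named genes were the 5 genes and Gata2, tested genes within 500 kb, the 6 most like Grem1 and the 2 most like each neighbour (passing over Gm and Rik symbols), up to 3 members of each gene list with the highest level and those called, and up to 2 of each marker list. Fshb outside its list, Cga, Tshb, Ghrhr, Bmf, Fmn2, Chgb, Ccnb2, the other genes without a cKO count and list genes at 0 were named after their values were seen. The minimum of 100 counts was also chosen then. Members, lists and rules were chosen with earlier results of these data known.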

Additional observations from a re-analysis of the deposited data

How the results depend on the processing

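The log2 fold change of Grem1 stayed within the spread between replicates in 16 of 16 alternatives (-4.54 to -4.38 with all libraries, -4.84 to -4.05 with 1 left out). Arhgap11a (1.04 to 3.53, and 0.43 to 9.01 with 1 library left out) was not called in any alternative. Fmn1 was called with no filter (-10.15, adjusted p 0.0366), DESeq2 (-9.62) and without control replicate 2 (range with 1 library left out -10.39 to -9.77), and Scg5 with limma-voom (-0.40) and without control replicate 2 (range -0.61 to -0.27). Gata2 lost its call with 1 CPM in 2 libraries (-1.28, adjusted p 0.0620). Ryr3 changed sign with limma-voom (-0.61) and with 1 library left out (-2.85 to 1.20). The count of 10 called genes became 943 in DESeq2, 256 in limma-voom, 253 without a filter, 47 under the newer edgeR method, 26 under robust=TRUE, 3 at a minimum of 1 CPM in 2 libraries, and 66 to 681 when a library was omitted. The median of genes within 1 Mb of Grem1 was -0.29 in limma-voom, -0.09 with a replicate block and -0.02 under the newer edgeR method. It was 0.14 within 2 Mb, 0.0306 within 5 Mb, and -0.429 to 0.00817 in fits that omit a library. In those fits the gap between Grem1 and the neighbours' median was -5.13 to -2.61. For all of these the cause was not tested. The place of Fmn1 by likeness to Grem1 was added after seeing the data.

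Samples with the same replicate number did not deviate together across genes (correlation -0.0105). With 2 libraries a group this cannot exclude a pairing, and the labels state none. The replicate block gave 7 called genes, a Gata2 value of -1.29 (adjusted p 0.0643) and a Ryr3 value of -0.78. Fits with 1 library in a group assume that it varies like the other group. Counts under about 100 limit what can be said of Fmn1, Ryr3 and Arhgap11a.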
